A study of Mus musculus with 9 samples.

Results

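Serpins are a family of proteins that share a fold with an exposed reactive centre loop. An inhibitory serpin offers this loop as bait to a protease, which cuts it and is trapped in a covalent complex, while several relatives have lost this activity and carry hormones instead. The liver secretes most plasma serpins, among them the inhibitors of neutrophil elastase, thrombin, plasmin and the first complement component, whereas clade B serpins stay inside cells and guard them against granule and lysosomal proteases. The serpins were taken as all protein-coding rows of the deposited gene table named Serpina to Serpini with a number, without the collagen chaperone Serpinh1, which gave 60 genes of 54532 rows.

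The values came from mRNA of wild-type livers of male C57BL/6J mice, in 3 groups of 3 libraries. The 326E livers came from mice on CDAA-HFD, a fat-rich diet that lacks choline, holds free amino acids in place of protein and produces steatohepatitis in mice, and were dosed with 326E at 30 mg/kg over 6 weeks. The vehicle livers came from mice on CDAA-HFD given vehicle, and the chow livers from mice on normal chow given vehicle. The study asked what 326E, an enedioic acid analogue whose named targets are ATP citrate lyase and PPARα, changes in such livers. Age is not stated, nor whether each library is a separate animal, so p-values measure the spread between these libraries.

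Each library had 13275888 to 17058316 reads assigned to genes, and 1 read in a gene of 2 kb is worth 0.0246 to 0.0455 FPKM (fragments per kilobase of gene, scaled for library depth). A gene was tested, on log2(FPKM+1), where 3 or more libraries reached 0.5 FPKM, which 13737 genes did. A gene was called at a Benjamini-Hochberg adjusted p under 0.05 from limma, and differences below are on that log2 scale with their standard error after ±. The summed hepatocyte markers were at 26198 to 37819 FPKM in 326E livers, 28275 to 43355 in vehicle livers and 41946 to 49502 in chow livers. In bulk liver, fewer cells of a type and less RNA per cell cannot be told apart. Exocrine pancreas markers stood at 1038 FPKM in 326E replicate 1 and 7860 FPKM in chow replicate 3, against 2.89 to 22.2 FPKM elsewhere. The 326E and diet comparisons share the vehicle libraries, so their values are given side by side and no overlap between them is read as a result.

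Of the 60 serpins, 24 belong to clade A, 26 to clade B, 1 each to clades C, D and G, 3 to clade E, and 2 each to clades F and I. Of the clade A genes, 23 lie on chromosome 12, and the clade B genes lie on chromosomes 1 and 13. The filter on low values was passed by 27 serpins, 15 of them in clade A and 5 in clade B. A further 21 had reads but did not pass, and apart from Serpini2 none of these exceeded 1.16 FPKM in any library. The remaining 12 were at 0 in every library: Serpina3j, Serpinb11, Serpinb13, Serpinb3a, Serpinb3b, Serpinb3c, Serpinb3d, Serpinb6d, Serpinb6e, Serpinb9d, Serpinb9e and Serpinb9g.

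Serpin mRNA was abundant and was lower on CDAA-HFD than on chow. Serpin genes took 1.96%, 1.45% and 1.87% of assigned reads in 326E livers, 1.52%, 1.66% and 1.77% in vehicle livers, and 3.80%, 4.25% and 3.68% in chow livers. The 326E and vehicle libraries overlapped, and every one of them lay below every chow library. Serpina3k and the 5 Serpina1 genes supplied 81.8% of the summed serpin FPKM in 326E livers, 75.2% in vehicle livers and 89.8% in chow livers, as means of 3 libraries.

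Between 326E and vehicle livers, 6 of the 27 tested serpins were called lower (22.2%) and 0 higher, against 6.5% and 4.96% of all tested genes. Among them were Serpina10, Serpina12, Serpina3g, Serpina3m and Serpinb6a. At an unadjusted p under 0.05, 10 serpins were lower and 2, Serpina1e and Serpina7, higher, and voom on the recovered reads called 7 lower and 0 higher. The count of 6 depends on single libraries: it was 3 without any 1 of the 326E libraries and 2 without vehicle replicate 1 or vehicle replicate 3. Between vehicle and chow livers, 11 serpins were lower (40.7%) and 8 higher (29.6%), against 20.8% of all tested genes in each direction. With values scaled to total reads, which moves the median of all genes to 0.25, 10 serpins were lower and 8 higher, against 7% and 36.9% of all tested genes. Between 326E and chow livers, 16 were lower (59.3%) and 5 higher (18.5%), against 12.5% and 14.4% of all tested genes; with values scaled to total reads the split was 12 lower and 7 higher, against 4.32% and 28.8% of all tested genes. The median difference of the 27 serpins was -0.17 for 326E against vehicle, -0.49 for vehicle against chow and -0.80 for 326E against chow, beside medians of -0.02, -0.04 and -0.02 over all tested genes. Quantile normalization put the serpin median at -0.0099 for vehicle against chow and -0.36 for 326E against chow, beside -0.085 and -0.044 over all tested genes, scaling to total reads put it at -0.12 and -0.44, and without vehicle replicate 3 it was -0.057 for 326E against vehicle.

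**Figure D1:**
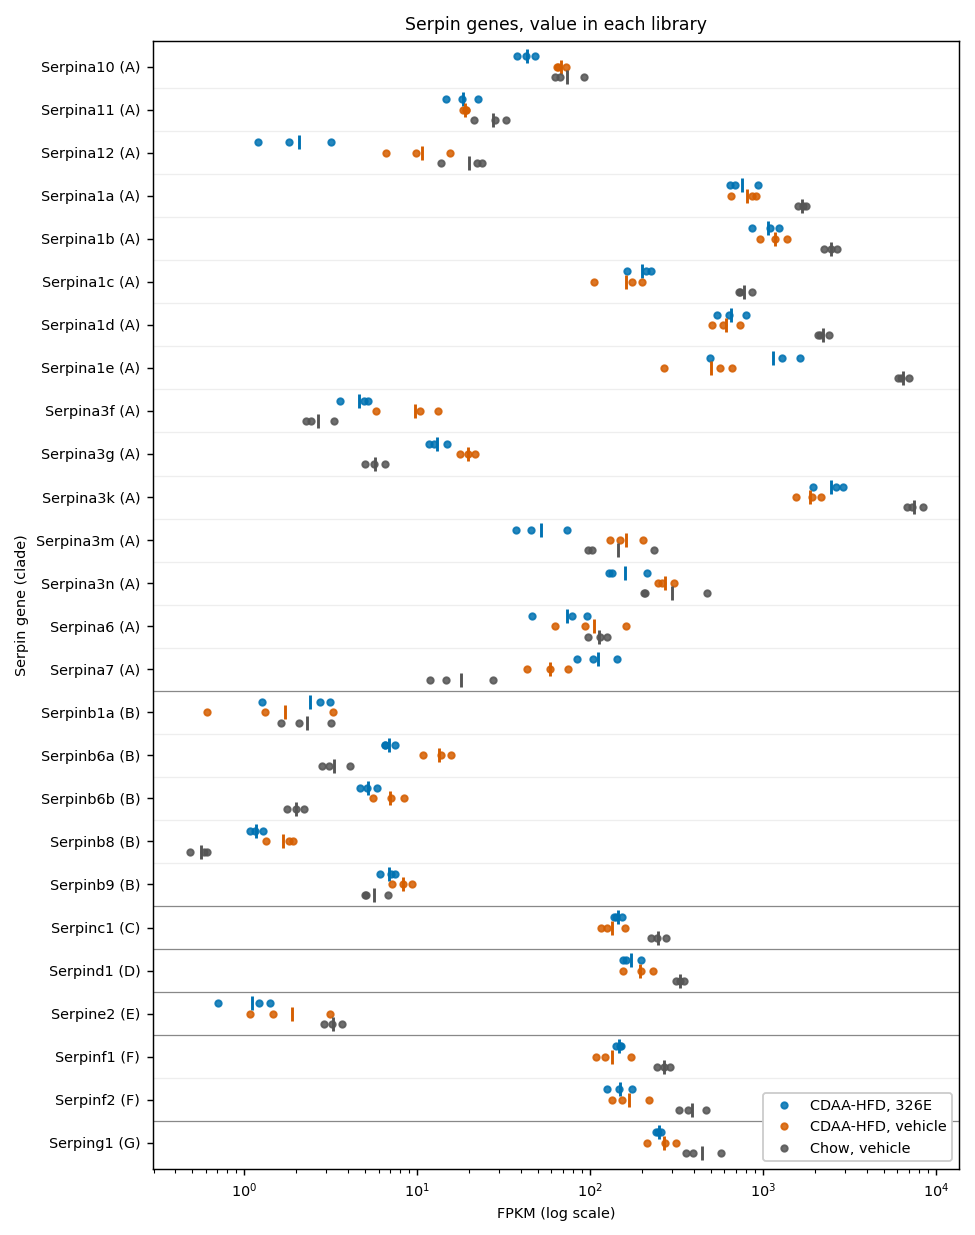
FPKM on a log axis of 26 of the 27 serpins that passed the filter, with clade in brackets. Points are single libraries, in rows of 326E, vehicle and chow for each gene, and vertical ticks are group means of 3 libraries. Serpina3k and the Serpina1 genes lie to the right, with the chow libraries highest, while Serpina7 and most clade B genes have the chow libraries lowest.

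The Serpina1 genes encode alpha-1-antitrypsin, the main plasma inhibitor of neutrophil elastase, which mice make from several near-identical copies. The 5 genes Serpina1a to Serpina1e lie on the minus strand of chromosome 12 (mm10), between 103728156 and 103958975. Aligned in pairs, their coding sequences from GENCODE vM21 are 96.3% to 98.5% identical, with unbroken identical runs of 226 to 728 bases. How reads that fit several genes were counted is not given in the sources used here, and the annotated span of Serpina1b contains Serpina1d, so the split of reads among the 5 is uncertain. The copies differ most near the 3′ end of the coding sequence, where the reactive centre loop is encoded. There a window of 60 bases has 18 variable positions (30%), against 86 of 1242 (6.92%) over the whole alignment. These stretches are shown because they are what sets the copies apart, both for the proteins and for read assignment. They are written 5′ to 3′ on the coding strand, GRCm38, with positions that vary among the 5 genes in capitals.
Serpina1a, chr12:103853757-103853816: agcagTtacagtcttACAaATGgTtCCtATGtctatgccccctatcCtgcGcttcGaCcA
Serpina1b, chr12:103728324-103728383: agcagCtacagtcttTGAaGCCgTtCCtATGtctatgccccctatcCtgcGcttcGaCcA
Serpina1c, chr12:103895094-103895153: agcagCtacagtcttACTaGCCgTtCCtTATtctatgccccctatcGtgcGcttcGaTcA
Serpina1d, chr12:103763762-103763821: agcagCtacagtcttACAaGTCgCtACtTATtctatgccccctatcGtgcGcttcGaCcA
Serpina1e, chr12:103947100-103947159: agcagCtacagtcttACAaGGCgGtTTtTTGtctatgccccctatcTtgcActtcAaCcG

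All 5 Serpina1 genes fell in vehicle livers relative to chow livers, as did 20.8% of all tested genes. None of the 5 Serpina1 genes was called between 326E and vehicle livers. Their summed level was 3947, 2715 and 4818 FPKM in 326E livers, 3053, 2865 and 3848 FPKM in vehicle livers, and 13629, 13763 and 13452 FPKM in chow livers. The annotated lengths of the copies differ, so this sum too shifts with the way reads were divided. Each CDAA-HFD library held less than any chow library.

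Serpina1e had 1290, 496 and 1640 FPKM in 326E livers, 270, 567 and 664 FPKM in vehicle livers, and 6979, 6087 and 6293 FPKM in chow livers. The 326E and vehicle libraries overlapped, and all of them lay far below chow. Serpina1e fell by 3.78 ± 0.46 in vehicle against chow (adjusted p = 0.000261) and differed by 1.12 ± 0.46 in 326E against vehicle (adjusted p = 0.149). Without 326E replicate 2, the lowest of its group, the second value was 1.64 (adjusted p = 0.0459).

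Serpina1c had 225, 165 and 210 FPKM in 326E livers, 106, 176 and 202 FPKM in vehicle livers, and 725, 864 and 742 FPKM in chow livers. Serpina1d had 637, 545 and 796 FPKM in 326E livers, 586, 507 and 737 FPKM in vehicle livers, and 2076, 2423 and 2147 FPKM in chow livers. In each of these genes the 326E and vehicle libraries were interleaved below chow. In vehicle against chow, Serpina1c fell by 2.31 ± 0.23 (adjusted p = 0.000101) and Serpina1d by 1.87 ± 0.19 (adjusted p = 0.000108).

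Serpina1a had 687, 646 and 934 FPKM in 326E livers, 913, 654 and 872 FPKM in vehicle livers, and 1589, 1711 and 1781 FPKM in chow livers. Serpina1b had 1107, 863 and 1237 FPKM in 326E livers, 1179, 962 and 1373 FPKM in vehicle livers, and 2260, 2678 and 2490 FPKM in chow livers. These copies again separated CDAA-HFD from chow and not 326E from vehicle. Their falls in vehicle against chow, 1.07 ± 0.19 for Serpina1a and 1.09 ± 0.19 for Serpina1b (adjusted p = 0.00206 each), were the smallest of the 5. Quantile normalization ended both calls, with Serpina1a at 0.04 and Serpina1b at -0.08.

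Serpina1e made up 32.7%, 18.3% and 34.0% of summed Serpina1 FPKM in 326E livers, 8.83%, 19.8% and 17.3% in vehicle livers, and 51.2%, 44.2% and 46.8% in chow livers. The chow libraries stood above all others, and the 326E and vehicle libraries overlapped; differences of this share between groups were not tested.

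**Figure D2:**
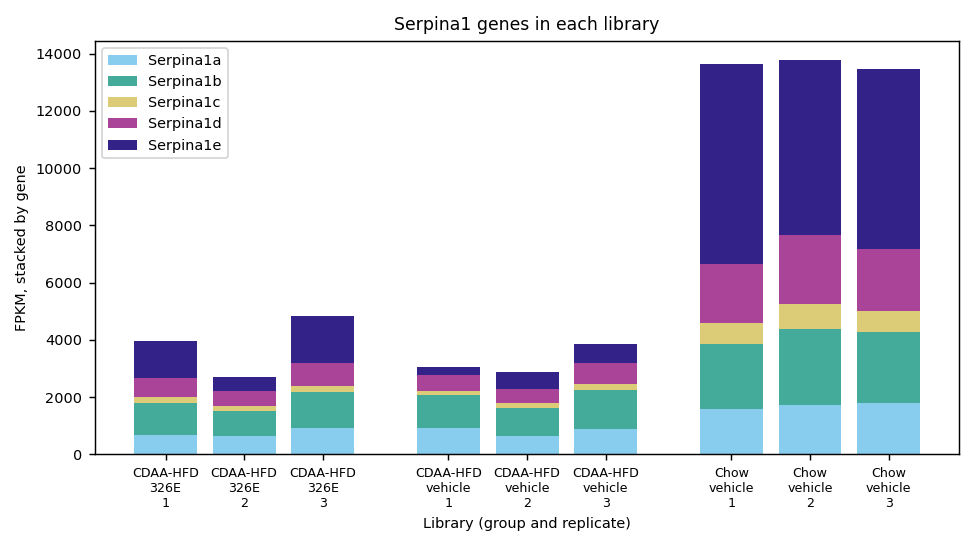
FPKM of Serpina1a to Serpina1e stacked for each of the 9 libraries, which are grouped as CDAA-HFD with 326E, CDAA-HFD with vehicle, and chow with vehicle. The stacks reach 13452 to 13763 FPKM in chow livers, with Serpina1e the largest block, and 2715 to 4818 FPKM in the CDAA-HFD livers.

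Promoters of the Serpina1 genes are nearly as alike as the coding sequences, with 91.7% to 98.4% identity between RefSeq windows (GRCm38.p6) of 250 bases before to 50 after each gene's start. Positions with a gap were left out. Pairs with Serpina1e aligned over only 238 to 249 bases, and the other pairs over 288 to 298. Each of the 5 windows holds GTTAAT, part of the binding motif of the hepatocyte factor HNF1, searched on both strands. It lay 16 to 27 bases before the RefSeq start in Serpina1a to Serpina1d. The 60 bases around it are printed for Serpina1e, the copy with the largest fall, with the motif in capitals, 78 bases before the RefSeq start. That start lies inside the longer span of Serpina1e in the deposited table, so the window is upstream of the RefSeq start only.
Serpina1e, chr12:103956940-103956999, minus strand: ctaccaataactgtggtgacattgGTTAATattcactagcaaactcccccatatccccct
Of the 27 tested serpins, 20 had a promoter entry, and 7 of these (35%) held GTTAAT, against 7.10% of 32851 promoters; the other two were Serpina7 and Serpinb8. The C/EBP motif TTGCNNAA was in 8 of 20 (40%), against 10.8% of all promoters, and the AP-1 motif TGANTCA in 5 of 20 (25%), against 7.81%. The STAT motif TTCNNNGAA was in 4 of 20 (20%), against 8.30%, namely Serpina11, Serpina3f, Serpina3g and Serpinb6a. The PPAR direct repeat (DR1, searched by its consensus) and the E-box CACGTG were in 0 of 20, against 0.381% and 7.15% of all promoters. A serpin was counted if any of its promoter entries held the motif, whereas the shares of all promoters are over single entries. The 51 serpins with an entry had 60 entries, so these shares are not strictly alike. Because the Serpina1 copies share their promoter sequence, they count as 5 in these numbers without being independent, and a match is a description of letters only.

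The Serpina3 genes are the mouse expansion of human alpha-1-antichymotrypsin, an inhibitor of chymotrypsin-like proteases. The 5 tested copies, Serpina3f, Serpina3g, Serpina3k, Serpina3m and Serpina3n, share 79.8% to 91.6% of their coding sequence in pairs, with Serpina3k and Serpina3m the closest. They lie on the plus strand of chromosome 12 (mm10), from 104214544 to 104414329, and Serpina3k and Serpina3m have the same annotated start, so reads could be divided wrongly between these genes. In vehicle against chow, 1 of the 5 fell, 2 rose and 2 were not called, beside 20.8% of all tested genes called in each direction.

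Serpina3k, the most abundant serpin in each group, had 2892, 1955 and 2640 FPKM in 326E livers, 1561, 2163 and 1931 FPKM in vehicle livers, and 6856, 8416 and 7261 FPKM in chow livers. Like the Serpina1 copies it was far lower on CDAA-HFD, with the 326E and vehicle libraries overlapping. It fell by 2.001 ± 0.21 in vehicle against chow (adjusted p = 0.000131) and differed by 0.40 ± 0.21 in 326E against vehicle (adjusted p = 0.259).

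Serpina3m had 37.4, 45.8 and 73.7 FPKM in 326E livers, 149, 132 and 204 FPKM in vehicle livers, and 103, 235 and 98.2 FPKM in chow livers. All 326E libraries lay below all others, and vehicle and chow overlapped. Serpina3m fell by 1.64 ± 0.36 in 326E against vehicle (adjusted p = 0.0225) and differed by 0.24 ± 0.36 in vehicle against chow (adjusted p = 0.622). The 326E call was lost in 4 of the fits that left out 1 library (326E replicate 1 or 2, vehicle replicate 1 or 3), with adjusted p of 0.0514 to 0.0765.

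Serpina3n, an acute phase inhibitor of granzyme B, had 135, 129 and 213 FPKM in 326E livers, 247, 263 and 308 FPKM in vehicle livers, and 206, 478 and 207 FPKM in chow livers. The 326E libraries lay below the vehicle libraries, but the difference of -0.80 ± 0.33 did not pass (adjusted p = 0.146). Chow replicate 2, highest for Serpina3n and Serpina3m, also had 672 FPKM of the acute phase gene Orm2, against 23.6 and 19.0 FPKM in the other chow livers, 87.9, 61.6 and 50.6 FPKM in 326E livers and 113, 150 and 202 FPKM in vehicle livers. That library is in neither group of the 326E against vehicle comparison and enters it only through the spread shared by the fit. Without it the Serpina3n difference between 326E and vehicle stayed at -0.80 and passed (adjusted p = 0.0362).

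Serpina3g, an intracellular inhibitor of cysteine cathepsins, had 12.6, 15.01 and 11.7 FPKM in 326E livers, 21.5, 17.8 and 19.7 FPKM in vehicle livers, and 5.63, 4.99 and 6.57 FPKM in chow livers. The 3 groups did not overlap, with 326E between chow and vehicle. It fell by 0.55 ± 0.13 in 326E against vehicle (adjusted p = 0.0254) and rose by 1.62 ± 0.13 in vehicle against chow (adjusted p = 2.67e-05). The 326E call was lost without 326E replicate 1 or 3 or vehicle replicate 1 or 3 (adjusted p of 0.0688 to 0.0858).

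Serpina3f had 3.61, 4.95 and 5.24 FPKM in 326E livers, 10.4, 5.78 and 13.2 FPKM in vehicle livers, and 3.32, 2.29 and 2.42 FPKM in chow livers. Its order of groups was that of Serpina3g, without overlap. Serpina3f rose by 1.496 ± 0.25 in vehicle against chow (adjusted p = 0.00156), while the difference of -0.89 ± 0.25 in 326E against vehicle missed the threshold (adjusted p = 0.053). Serpina3f was called lower there in 4 of 19 alternative fits, which were a mean of at least 1 FPKM, scaling to total reads, voom, and without vehicle replicate 2 (-1.19, adjusted p = 0.00700).

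**Figure D3:**
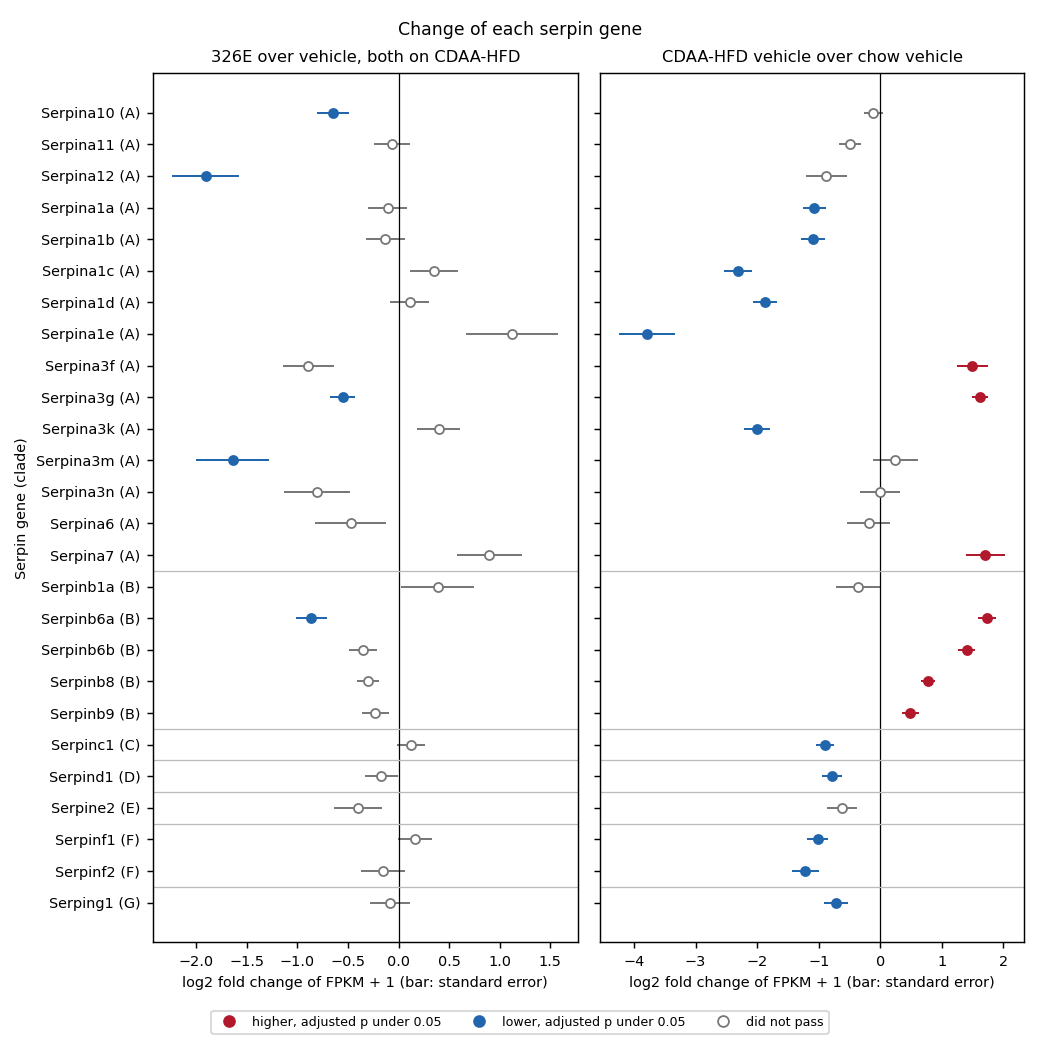
Difference of log2(FPKM+1) with its standard error for 26 of the 27 tested serpins, on the left for 326E over vehicle and on the right for CDAA-HFD vehicle over chow vehicle. Filled points passed an adjusted p of 0.05, blue for lower and red for higher; on the left 5 are blue, and on the right 11 are blue and 7 red.

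Hormone carriers and the remaining clade A genes went different ways. Serpina7, thyroxine-binding globulin (X chromosome, 139079257 to 139085236), had 84.0, 144 and 105 FPKM in 326E livers, 74.8, 43.2 and 59.2 FPKM in vehicle livers, and 14.7, 27.5 and 11.97 FPKM in chow livers. The 3 groups did not overlap, with 326E highest. Serpina7 rose by 1.71 ± 0.32 in vehicle against chow (adjusted p = 0.00274) and by 2.60 ± 0.32 in 326E against chow (adjusted p = 0.000677). The difference of 0.90 ± 0.32 in 326E against vehicle did not pass (adjusted p = 0.105). The rise in vehicle against chow was lost when vehicle replicate 2 alone stood for its group (adjusted p = 0.0767).

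Serpina6, corticosteroid-binding globulin, had 46.0, 79.3 and 95.9 FPKM in 326E livers, 93.4, 62.9 and 162 FPKM in vehicle livers, and 126, 115 and 98.2 FPKM in chow livers. It was called in no comparison, and vehicle spanned nearly the whole range. Of 5 other carriers and relatives (Agt, Ttr, Gc, Rbp4 and Alb, of which Ttr and Alb are also hepatocyte markers), 0 were called between 326E and vehicle, and 2, Ttr and Gc, fell in vehicle against chow. The share of all tested genes that fell in vehicle against chow was 20.8%. Ttr, which carries thyroxine and retinol-binding protein, fell by 1.28 ± 0.21 (adjusted p = 0.0013) and Gc, the vitamin D carrier, by 0.49 ± 0.17 (adjusted p = 0.0446).

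Serpina12 (chromosome 12, 104028769 to 104044443, minus strand) encodes vaspin, named as an adipokine with insulin-sensitizing activity. It had 3.21, 1.20 and 1.83 FPKM in 326E livers, 9.91, 15.6 and 6.65 FPKM in vehicle livers, and 22.2, 13.8 and 23.9 FPKM in chow livers. All 326E libraries lay below all others, and vehicle and chow overlapped. Serpina12 fell by 1.91 ± 0.33 in 326E against vehicle (adjusted p = 0.00897) and fell by 2.79 ± 0.33 in 326E against chow (adjusted p = 0.000571); vehicle against chow, at -0.88 ± 0.33, did not pass (adjusted p = 0.0592). The call against vehicle held in each of the 19 alternative fits.

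Serpina10 (chromosome 12, 103614786 to 103631444, minus strand) encodes the protein Z-dependent inhibitor of activated factor X. It had 48.3, 38.1 and 42.7 FPKM in 326E livers, 65.7, 64.8 and 73.0 FPKM in vehicle livers, and 62.7, 92.6 and 67.5 FPKM in chow livers. The 326E libraries lay below the rest, and vehicle and chow overlapped. Serpina10 fell by 0.65 ± 0.16 in 326E against vehicle (adjusted p = 0.0302) and by 0.76 ± 0.16 in 326E against chow (adjusted p = 0.00754). Leaving out 326E replicate 2 or 3, or any vehicle library, moved the adjusted p against vehicle to 0.0529 to 0.107, and scaling to total reads ended the call against chow (-0.40, adjusted p = 0.083).

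Serpina11 had 18.2, 14.7 and 22.4 FPKM in 326E livers, 18.6, 19.3 and 19.1 FPKM in vehicle livers, and 28.3, 32.8 and 21.4 FPKM in chow livers. The 326E libraries overlapped with vehicle and with chow. Its fall of 0.55 ± 0.18 in 326E against chow (adjusted p = 0.0457) was lost in 13 of 19 alternative fits.

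The liver's thrombin inhibitors Serpinc1 and Serpind1 fell with the diet and were not called between 326E and vehicle. Serpinc1, antithrombin, had 143, 138 and 153 FPKM in 326E livers, 126, 116 and 159 FPKM in vehicle livers, and 243, 274 and 226 FPKM in chow livers. Serpind1, heparin cofactor II, had 162, 156 and 198 FPKM in 326E livers, 198, 155 and 232 FPKM in vehicle livers, and 332, 349 and 315 FPKM in chow livers. For each of these genes, chow stood above every CDAA-HFD library. In vehicle against chow, Serpinc1 fell by 0.90 ± 0.14 (adjusted p = 0.000981) and Serpind1 by 0.78 ± 0.16 (adjusted p = 0.00456). Quantile normalization put Serpind1 at -0.17 and ended its call (adjusted p = 0.261).

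Of 16 coagulation proteases and cofactors, 0 were called higher and 2 lower in 326E against vehicle, and 3 higher and 8 lower in vehicle against chow. Beside these, 4.96% of all tested genes were higher and 6.5% lower in 326E against vehicle, and 20.8% in each direction in vehicle against chow. The 2 genes lower in 326E against vehicle were surface receptors of the protein C system. Thbd, thrombomodulin, fell by 1.43 ± 0.26 (adjusted p = 0.0109), with 3.09, 2.66 and 3.01 FPKM in 326E livers against 10.6, 5.54 and 14.5 FPKM in vehicle livers. Procr, the endothelial protein C receptor, fell by 0.63 ± 0.15 (adjusted p = 0.0315). Its values were low, at 1.45, 0.954 and 1.16 FPKM in 326E livers against 2.23, 2.13 and 2.77 FPKM in vehicle livers.

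Serpine2, protease nexin 1, a cell-surface inhibitor of thrombin and urokinase, had 1.41, 1.23 and 0.712 FPKM in 326E livers, 1.08, 3.13 and 1.47 FPKM in vehicle livers, and 3.22, 2.90 and 3.69 FPKM in chow livers. The 326E libraries lay below chow, and vehicle overlapped with both. Serpine2 fell by 1.02 ± 0.24 in 326E against chow (adjusted p = 0.0133) and was not called in the other comparisons. The call was lost with values scaled to total reads (adjusted p = 0.0536), and vehicle against chow was called lower after quantile normalization and without vehicle replicate 2 (-0.91, adjusted p = 0.00401).

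Serpinf2, alpha-2-antiplasmin, had 148, 126 and 175 FPKM in 326E livers, 153, 134 and 221 FPKM in vehicle livers, and 369, 472 and 330 FPKM in chow livers. Serpinf1, pigment epithelium-derived factor, a relative without inhibitory activity, had 150, 141 and 152 FPKM in 326E livers, 108, 122 and 173 FPKM in vehicle livers, and 269, 292 and 243 FPKM in chow livers. These neighbours on chromosome 11 were lower on CDAA-HFD in every library. In vehicle against chow Serpinf2 fell by 1.22 ± 0.22 (adjusted p = 0.00206) and Serpinf1 by 1.01 ± 0.17 (adjusted p = 0.00148).

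Among 10 genes of plasminogen activation, 3 were lower and 0 higher in 326E against vehicle, and 5 were higher and 4 lower in vehicle against chow. The shares of all tested genes were 6.5% lower and 4.96% higher in 326E against vehicle. They were 20.8% in each direction in vehicle against chow. Plau, urokinase, had 4.23, 3.55 and 3.49 FPKM in 326E livers, 9.56, 9.52 and 7.80 FPKM in vehicle livers, and 0.982, 0.522 and 0.807 FPKM in chow livers. It fell by 1.06 ± 0.13 in 326E against vehicle (adjusted p = 0.00233), and its receptor Plaur fell by 1.43 ± 0.34 (adjusted p = 0.028). Plau was even among the vehicle libraries, whereas Plaur, at 5.70, 3.05 and 10.5 FPKM, was highest in vehicle replicates 1 and 3.

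Serping1, the C1 inhibitor, had 249.2, 240 and 259 FPKM in 326E livers, 215, 271 and 316 FPKM in vehicle livers, and 397, 576 and 361 FPKM in chow livers. Chow was highest, and 326E lay within the vehicle range. The fall of 0.72 ± 0.20 in vehicle against chow (adjusted p = 0.018) was lost without vehicle replicate 1, with only vehicle replicate 2 kept, after quantile normalization and with values scaled to total reads. Of 7 tested genes of the C1 and lectin arms, 2 were lower and 0 higher in 326E against vehicle, and 3 were higher and 4 lower in vehicle against chow. The shares of all tested genes were 6.5% lower and 4.96% higher in 326E against vehicle. They were 20.8% in each direction in vehicle against chow. C1qb, a chain of the recognition subunit made by macrophages, fell by 0.68 ± 0.14 in 326E against vehicle (adjusted p = 0.019), and C1s1, a protease that Serping1 inhibits, fell by 0.62 ± 0.12 (adjusted p = 0.014). In vehicle against chow, C1qb rose by 1.73 ± 0.14 (adjusted p = 3.58e-05), whereas C1s1 fell by 0.36 ± 0.12 (adjusted p = 0.0372).

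The clade B serpins, which act inside cells, were low, at 15.8 FPKM or less in every library. Of 26 genes, 5 passed the filter, and of these 5, 4 rose in vehicle against chow, and 1, Serpinb6a, fell in 326E against vehicle. Beside these, 20.8% of all tested genes rose in vehicle against chow and 6.5% fell in 326E against vehicle.

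Serpinb6a (chromosome 13, 33917918 to 34002794, minus strand), an inhibitor of cathepsin G, had 7.48, 6.57 and 6.58 FPKM in 326E livers, 10.8, 15.8 and 13.8 FPKM in vehicle livers, and 4.08, 3.10 and 2.83 FPKM in chow livers. The groups did not overlap, with 326E in the middle. It fell by 0.86 ± 0.15 in 326E against vehicle (adjusted p = 0.00965), a call kept in all 19 alternative fits, and rose by 1.73 ± 0.15 in vehicle against chow (adjusted p = 4.7e-05). The gene overlaps Nqo2 and Ripk1 on the opposite strand, and the strand setting of the counting is not given in the sources used here.

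Serpinb6b had 5.90, 5.11 and 4.69 FPKM in 326E livers, 5.57, 8.37 and 7.08 FPKM in vehicle livers, and 2.23, 1.77 and 2.01 FPKM in chow livers. Serpinb8 had 1.29, 1.15 and 1.08 FPKM in 326E livers, 1.81, 1.33 and 1.91 FPKM in vehicle livers, and 0.485, 0.612 and 0.588 FPKM in chow livers. For each of these genes every CDAA-HFD library lay above chow. In vehicle against chow Serpinb6b rose by 1.40 ± 0.14 (adjusted p = 9.15e-05) and Serpinb8 by 0.78 ± 0.11 (adjusted p = 0.000551); neither was called between 326E and vehicle.

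Serpinb9, the inhibitor of granzyme B, had 6.14, 7.10 and 7.47 FPKM in 326E livers, 7.16, 9.34 and 8.34 FPKM in vehicle livers, and 5.06, 6.85 and 5.03 FPKM in chow livers. Vehicle lay just above chow, and 326E overlapped with each. The rise of 0.49 ± 0.14 in vehicle against chow (adjusted p = 0.0192) was lost without vehicle replicate 2 or 3 or chow replicate 1 or 3. Serpinb1a, the inhibitor of leukocyte elastase, had 2.75, 1.27 and 3.16 FPKM in 326E livers, 0.610, 1.32 and 3.25 FPKM in vehicle livers, and 2.09, 1.64 and 3.20 FPKM in chow livers, with no call in any comparison.

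Markers of macrophages, neutrophils and other cells were higher in vehicle than in chow livers, as were Serpinb6a, Serpinb6b, Serpinb8, Serpinb9, Serpina3f and Serpina3g. Serpina7, a hormone carrier, was also higher in vehicle than in chow livers, but its highest values were in 326E livers. The sum of 8 macrophage markers was 586 to 970 FPKM in 326E livers, 1073 to 1517 FPKM in vehicle livers and 217 to 239 FPKM in chow livers. Of these markers 5 were lower in 326E against vehicle and 7 higher in vehicle against chow. Beside this and the later marker counts, 6.5% of all tested genes were lower and 4.96% higher in 326E against vehicle. In vehicle against chow the share was 20.8% in each direction. Of 6 neutrophil markers, summing to 18.6 to 32.4 FPKM in 326E livers, 34.6 to 61.3 FPKM in vehicle livers and 5.07 to 25.4 FPKM in chow livers, 1 was lower in 326E against vehicle and 5 were higher in vehicle against chow. T and NK cell markers summed to 2.24 to 8.53 FPKM in 326E livers, 3.55 to 7.28 FPKM in vehicle livers and 1.08 to 1.88 FPKM in chow livers, with 0 of 3 tested called in 326E against vehicle, and the 1 tested B cell marker was called in no comparison. Markers of stellate cells and myofibroblasts summed to 153 to 183 FPKM in 326E livers, 209 to 278 FPKM in vehicle livers and 60.9 to 75.5 FPKM in chow livers. Of these markers 3 were lower in 326E against vehicle and 5 higher in vehicle against chow. Endothelial markers summed to 60.8 to 66.0 FPKM in 326E, 50.3 to 62.5 FPKM in vehicle and 46.9 to 56.6 FPKM in chow livers. Of 6 tested, 0 were called in 326E against vehicle, and 2 were higher and 1 lower in vehicle against chow. Of 3 erythroid markers, 1 was higher in 326E against vehicle and 1 lower in vehicle against chow. Cholangiocyte markers summed to 79.8 to 137 FPKM in 326E livers, 112 to 325 FPKM in vehicle livers and 31.5 to 50.04 FPKM in chow livers, and 3 of 4 tested were higher in vehicle against chow. Mesothelium markers summed to 226 to 334 FPKM in 326E livers, 274 to 491 FPKM in vehicle livers and 87.2 to 122 FPKM in chow livers, and 1 of 3 tested was higher in vehicle against chow. The part of these cells in the serpin differences was not tested. For the plasma inhibitors that fell with the diet, 4 of 8 hepatocyte markers were also lower in vehicle against chow, and the part of that was not tested either.

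Cysteine cathepsins, caspases and granule proteases were counted too, without regard to which of them a serpin detected here inhibits. Of 13 cysteine cathepsins and caspases, 4 were lower and 0 higher in 326E against vehicle, and 6 were higher and 2 lower in vehicle against chow. The shares of all tested genes were 6.5% lower and 4.96% higher in 326E against vehicle. They were 20.8% in each direction in vehicle against chow. Ctsk, a collagen-cleaving cathepsin, fell by 1.31 ± 0.25 in 326E against vehicle (adjusted p = 0.014), and Ctss, a cathepsin of antigen-presenting cells, fell by 1.23 ± 0.28 (adjusted p = 0.0262). Of 12 granule proteases only 4 could be tested, and 0 were called between 326E and vehicle. Gzma, a granzyme of T and NK cells, rose by 0.75 ± 0.21 in vehicle against chow (adjusted p = 0.0189), and the neutrophil collagenase Mmp8, also in the neutrophil list, by 0.53 ± 0.15 (adjusted p = 0.0194). These genes were near the filter. Gzma had 1.52, 1.22 and 0.750 FPKM in vehicle livers and 0.308, 0.153 and 0.362 FPKM in chow livers. Mmp8 had 0.731, 0.588 and 0.886 FPKM in vehicle livers and 0.128, 0.477 and 0.0375 FPKM in chow livers. At such levels log2(FPKM+1) shrinks differences: the vehicle means were 4.24 and 3.43 times the chow means.

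Of 14 tested protease inhibitors outside the serpins, 2 were lower and 0 higher in 326E against vehicle, and 3 were higher and 5 lower in vehicle against chow. For this list and the next, the shares of all tested genes were 6.5% lower and 4.96% higher in 326E against vehicle. They were 20.8% in each direction in vehicle against chow. Slpi, a secreted inhibitor of leukocyte elastase, fell by 1.02 ± 0.16 (adjusted p = 0.00661) and Timp1, an inhibitor of matrix metalloproteinases, by 0.88 ± 0.21 (adjusted p = 0.03) in 326E against vehicle. Of 12 genes of interleukin 6 and acute phase signalling, 4 were higher and 1 lower in vehicle against chow. In 326E against vehicle 0 were higher and 1 lower, the receptor Il6ra, by 1.25 ± 0.24 (adjusted p = 0.014). Il6ra had 2.75, 2.41 and 4.63 FPKM in 326E livers, 9.27, 9.79 and 7.80 FPKM in vehicle livers, and 8.24, 11.4 and 5.77 FPKM in chow livers. Its 326E libraries were the lowest, and vehicle and chow overlapped.

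Serpini2, known from exocrine pancreas, did not pass the filter but stood out in 1 library. It had 0.923, 0 and 0 FPKM in 326E livers, 0, 0 and 0 FPKM in vehicle livers, and 0, 0 and 19.997 FPKM in chow livers. The libraries with reads, 326E replicate 1 and chow replicate 3, are those with high exocrine pancreas markers. Serpini1, neuroserpin, stayed between 0.0318 and 0.176 FPKM.

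**Figure D4:**
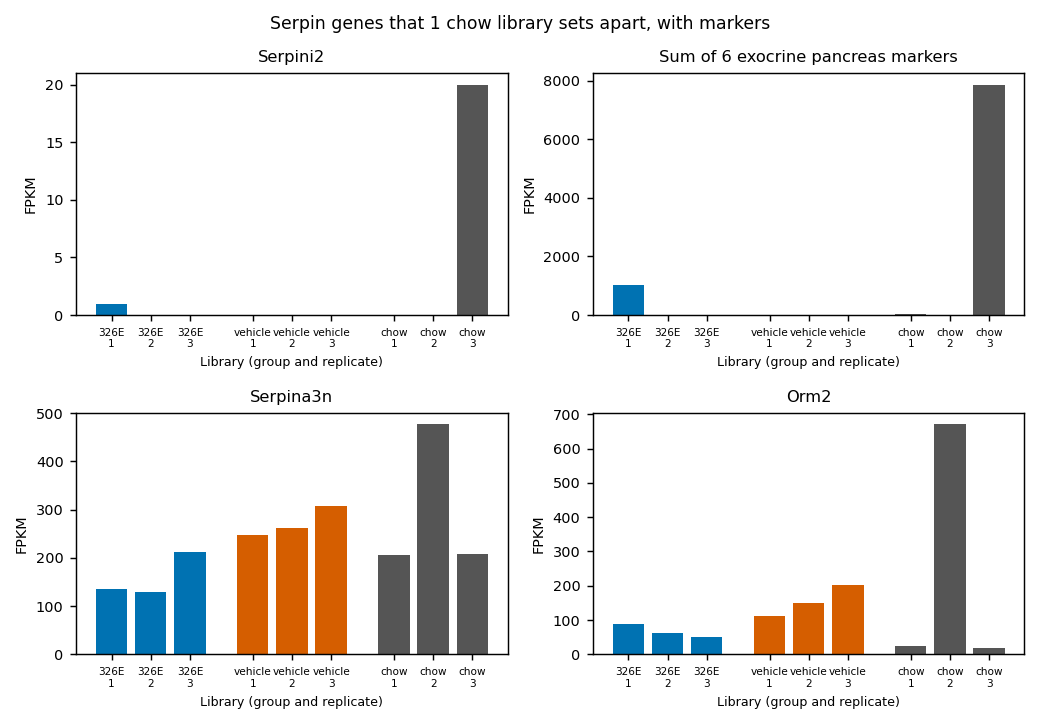
FPKM in each of the 9 libraries, as bars from 0, of Serpini2, of the sum of 6 exocrine pancreas markers, of Serpina3n and of the acute phase gene Orm2, with 326E, vehicle and chow libraries from left to right. Chow replicate 3 is highest in both upper panels, at 19.997 and 7860 FPKM, and chow replicate 2 in both lower panels, at 478 and 672 FPKM.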

How the data were processed

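Poly(A) RNA libraries from liver, 9 in all and 3 per group, were analysed. Per the submitters' processing notes, HISAT2, featureCounts and the build mm10 were used; versions, annotation release, strand setting and treatment of reads that fit several genes are not given in the sources used here. The deposited values are FPKM per gene with a gene length, as the authors made them. FPKM times length gave whole reads to within 0.01 for 100% of values. The library sizes implied by the deposited FPKM were 0.83 to 1.19 of the assigned totals, which shows a scaling between libraries before deposit. This ratio followed the group: 0.83 to 0.86 in chow, 1.01 to 1.15 in 326E and 1.04 to 1.19 in vehicle libraries. Beside scaling to total reads, the deposited scaling therefore raised FPKM in chow livers relative to both CDAA-HFD groups. All 9 libraries entered 1 fit of limma 3.58.1 (R 4.3.3) on log2 of FPKM plus 1, with a trend for the variance and 6 residual degrees of freedom, and p-values were adjusted by Benjamini-Hochberg over 13737 genes per comparison. The method was tested on simulated data. Coding sequences (GENCODE vM21, which has all 60 serpins at the deposited coordinates) were aligned with MAFFT 7.526; promoters are from RefSeq. Python 3.11.15, pandas 2.3.3, numpy 2.4.6 and matplotlib 3.10.9 were used. Title prefixes name another diet than the protocol in the labels, which is followed here.

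Results of 1 tested serpin are not reported here, though it counts in the totals. The serpins, lists and tests were chosen with earlier results of these data known. Values per library are given for every serpin averaging at least 1 FPKM and called in a comparison, and for a fixed set of main plasma and leukocyte serpins; of each other list, the 2 called members with the largest change in 326E against vehicle, or else in vehicle against chow. Alternatives were a pseudocount of 0.1 or 5, filters dropped or set at a mean of at least 1 FPKM, quantile normalization, scaling to total reads, voom on recovered reads, only the libraries compared, a replicate block, only vehicle replicate 2 kept, and each library left out.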

Additional observations from a re-analysis of the deposited data

How the results depend on the processing

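The count of serpins called lower in 326E against vehicle, 6, was 3 with no filter, 2 with only vehicle replicate 2 kept, and 2 to 7 when single libraries were left out; the count called higher, 0, was 0 to 1. The other counts stayed within 1.5 times. Scaling to total reads moved the median of all genes to 0.25 for vehicle against chow and 0.24 for 326E against chow, and split the calls of 326E against chow into 7 higher (36.8%) and 12 lower, beside 5 (23.8%) and 16. Replicate numbers mark no stated pairing, and libraries of the same number did not deviate together (correlations -0.244 to 0.0236); with the replicate block, 4 serpins were lower in 326E against vehicle, without Serpina10 and Serpina3g. Directions that turned, nearly all of uncalled genes, were the following, and the cause was not tested. In 326E against vehicle, with only vehicle replicate 2 kept, Serpina1a was at 0.19, Serpina1b 0.14, Serpina6 0.16, Serpind1 0.14 and Serpinf2 0.15, and quantile normalization put Serpina1d at -0.044. Leaving out single libraries there gave -0.21 to 0.084 for Serpina11, -0.27 to 0.014 for Serpina1b, -0.032 to 0.26 for Serpina1d, -0.31 to 0.054 for Serpinf2 and -0.23 to 0.047 for Serping1. In vehicle against chow, quantile normalization put the called Serpina1a at 0.041, Serpina10 at 0.18, Serpina3n at 0.61 and Serpina6 at 0.17; scaling to total reads put Serpina10 at 0.28, Serpina3n at 0.39 and Serpina6 at 0.20; and keeping only vehicle replicate 2 put Serpina3m at -0.023. Leaving out single libraries gave -0.22 to 0.057 for Serpina10, -0.21 to 0.39 for Serpina3n and -0.55 to 0.13 for Serpina6. Serpinb1a in 326E against chow was at -0.070 after quantile normalization and -0.15 to 0.28 when single libraries were left out.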

Other observations

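Serpina4-ps1, annotated as an unprocessed pseudogene (chromosome 12, 104080649 to 104086724, plus strand, mm10) and so outside the protein-coding serpins, had 3.43, 2.88 and 9.47 FPKM in 326E livers, 0.665, 2.03 and 0.676 FPKM in vehicle livers, and 36.2, 73.4 and 132 FPKM in chow livers. The 3 groups did not overlap, with vehicle lowest. Its difference in vehicle against chow, -5.14 ± 0.51 on the log2(FPKM+1) scale (limma, adjusted p = 8.69e-05), was larger in size than that of any tested protein-coding serpin, and 326E against vehicle, at 1.47 ± 0.51, did not pass (adjusted p = 0.0944). It was singled out after its values were seen.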
